A study of Mus musculus with 8 samples.

Results

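Clustered protocadherins are cadherin-repeat adhesion proteins of the neuronal surface whose genes lie in 3 neighbouring arrays, alpha, beta and gamma. The rule took every row of the expression table with a single gene symbol of the alpha (Pcdha), beta (Pcdhb) or gamma (Pcdhg) type. It found 22 rows among the 23410 rows with a gene symbol, and all 22 were beta genes, Pcdhb1 to Pcdhb22. The reference gene table (assembly GRCm38.p6) lists 58 clustered protocadherin genes on chromosome 18, of which 22 are beta genes, so each beta gene had 1 row of its own. The 14 alpha genes shared 1 row that carries all their symbols, and no row is named for any of the 22 gamma genes in the annotation used here. The C-type genes, which lie at the ends of the alpha and gamma arrays, therefore had no value of their own.

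Each neuron switches on a small set of these genes by choosing among their promoters, and cells with matching sets recognise one another. In a beta gene the whole protein is encoded by a single exon, while alpha and gamma genes each join a variable exon to constant exons shared by their array. The insulator protein Ctcf and the cohesin ring bring a distant enhancer to a promoter, and DNA methylation and Smchd1, a chromatin protein of the SMC family, keep unchosen promoters silent. Olfactory sensory neurons (OSNs) use clustered protocadherins when their axons sort and spread in the glomeruli of the olfactory bulb.

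The samples were olfactory mucosae of mice at postnatal day 1 on a mixed 129 x C57BL/6J background, 1 array per sample. The Emx2 knockout group (4 arrays) was 123Cre:Emx2(fl/fl), with Cre recombinase and 2 floxed alleles of Emx2, a homeodomain transcription factor. The littermate control group (4 arrays) held 2 samples of 123Cre:Emx2(fl/+), with Cre and 1 floxed allele, and 2 of Emx2(fl/fl) without Cre, so all 8 samples carried at least 1 floxed allele and Cre was present in all knockouts and only 2 of the controls. The 123Cre transgene acts from the immature OSN stage onward, so OSN progenitors and the other cells of the mucosa, in which protocadherins may also be expressed, were not targeted. Emx2 mRNA that remains can come from those cells or from OSNs without recombination, which cannot be told apart. Both sexes were used, and the sex and litter of each sample are not given in the labels. Each value is a deposited log2 value per transcript cluster, which summarises the probes along 1 gene, and differences are knockout minus control on that scale.

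Emx2 mRNA was lower in every knockout array. Its values were 9.80, 9.86, 10.01 and 9.93 in knockouts 1 to 4, against 10.80, 10.86, 10.997 and 10.72 in controls 1 to 4, a difference of -0.94 (SE 0.082, limma adjusted p = 0.0014). Omp, the olfactory marker protein of mature OSNs, was at 12.80 to 12.94 in knockouts and 12.86 to 13.07 in controls. The 18 mature OSN markers averaged 11.13 to 11.24 per knockout array and 11.31 to 11.40 per control array, and 16 of them had a lower mean in the knockout. Of the 15 immature OSN markers, 14 had a lower mean in the knockout. Among all rows with a gene symbol, 48.4% had a lower mean. Neither list had a member past the adjusted threshold in limma, and at an unadjusted p under 0.05, 4 mature markers were lower and 1 was higher, while 5 immature markers were lower. At that p, 3.06% of all rows with a gene symbol were lower and 3.04% higher. Fewer cells of a type and less RNA per cell cannot be told apart in such bulk samples. The study reported OSN numbers, mature and immature, as unaffected by conditional Emx2 deletion. The marker lists used here are shorter than its own sets of OSN-specific mRNAs, and the difference was not tested. Of the 8 arrays, knockout 2 was least like the others, with a mean correlation of 0.978 with them (0.987 to 0.990 in the other arrays) and the lowest limma array weight, 0.17.

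No beta protocadherin was detectably changed in the Emx2 knockout. Of the 22 rows, 0 passed an adjusted p of 0.05 in limma, against 0.359% of all named rows. Those were 84 rows, of which 82 (0.35% of named rows) were lower in the knockout and 2 (0.00854%) were higher. At an unadjusted p under 0.05 the count was also 0 of 22, against 6.1% of all named rows (3.06% lower and 3.04% higher), and the methods' t-test gave 0 and 0 as well. The lowest unadjusted p was 0.0891, and the lowest adjusted p was 0.876. No row had all 4 knockout values below all 4 control values, which held for 2.54% of all named rows. None had all 4 above, against 1.98%.

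**Figure D1:**
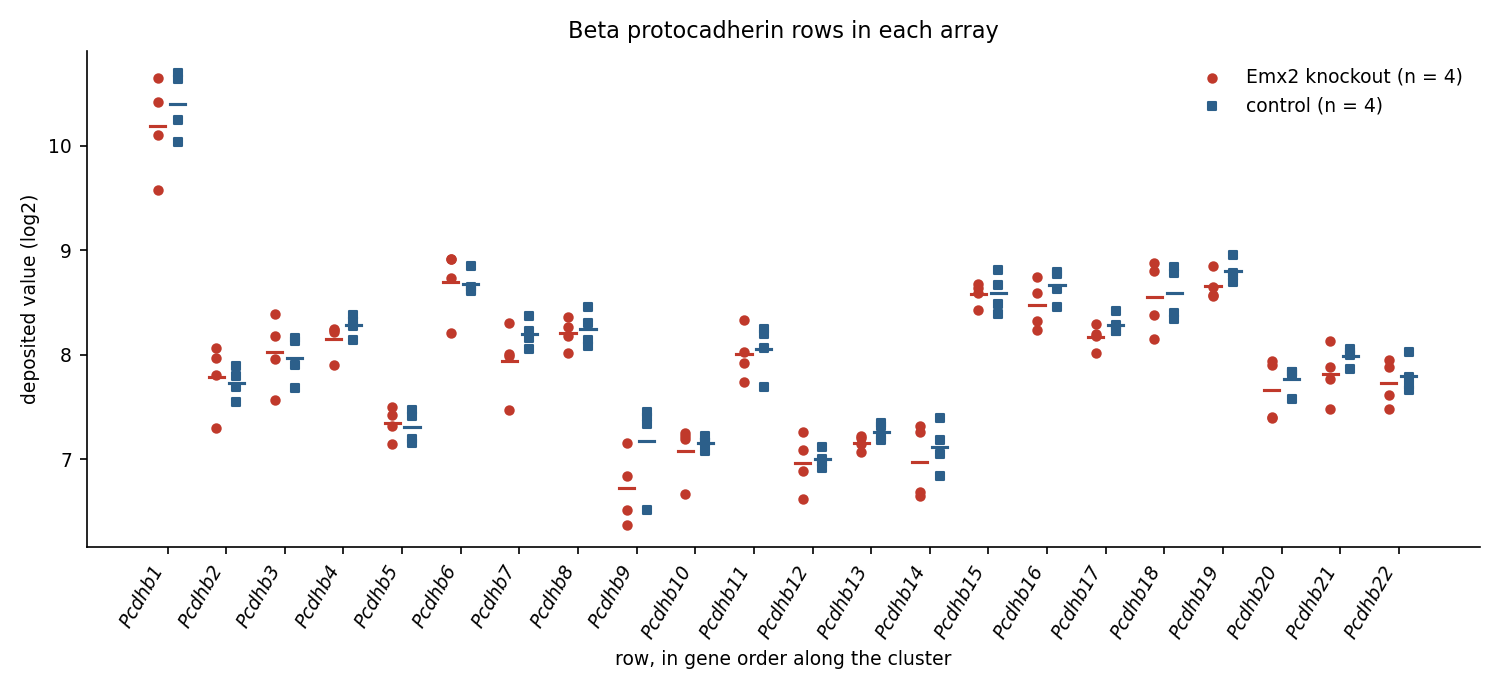
Deposited log2 value (vertical axis) of the 22 beta protocadherin rows (horizontal axis, in gene order along the cluster) in 4 Emx2 knockout arrays (circles) and 4 control arrays (squares), with a line at each group mean. The knockout and control values overlap in every row, and in Pcdhb7 and Pcdhb10 knockout 2 lies well below every other array.

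The mean of the knockout lay below that of the control in 18 of 22 rows, against 48.4% of all named rows. Differences ran from -0.46 for Pcdhb9 to 0.06 for Pcdhb3, with a median of -0.09 over the 22 rows and 0.0041 over all named rows. Centring each array on the mature OSN markers shifts the difference of every row by the same amount. It therefore cannot change how the members stand against the rest of the table. It moved the median of all named rows to 0.16 and that of the 22 rows to 0.06. The mean was then lower in only 5 of the 22 rows, and 13 members turned sign through that shift. Under quantile normalization 17 of 22 were lower, and with each array centred on its median 18 of 22. Those means rest in part on knockout 2, and without that array 11 of 22 rows were lower.

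The 22 rows averaged together were at 7.90, 7.67, 8.07 and 8.16 in knockouts 1 to 4, and at 7.98, 7.91, 8.19 and 8.11 in controls 1 to 4. Knockout 2 was the lowest of the 8 arrays, and knockout 4 lay above 3 of the 4 controls. The group means of this average were 7.95 ± 0.22 in knockouts and 8.05 ± 0.12 in controls (SD, n = 4 each), a difference of -0.099, smaller than the spread between the knockout arrays. Without knockout 2 the difference was -0.0051.

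The intervals show which sizes of change were compatible with the values of each row. The 95% interval of the difference lay within a 1.5-fold change in either direction for 19 of 22 rows, against 87.8% of all named rows. It lay within a 2-fold change for 21 of 22, against 97.7%. The exceptions were Pcdhb1, Pcdhb7 and Pcdhb9 at 1.5-fold, and Pcdhb9 at 2-fold, where the interval ran from -1.0 to 0.09. A change confined to a fraction of the OSNs, or to a cell type that makes up little of the mucosa, would be diluted in these values.

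Among the members with the lowest unadjusted p in the lower direction, Pcdhb9 had the widest separation of means. Its values were 6.37, 6.84, 7.16 and 6.52 in knockouts 1 to 4, against 7.34, 6.52, 7.46 and 7.40 in controls 1 to 4. Control 2 lay among the knockouts, and the other 3 controls lay above every knockout. The difference was -0.46 (SE 0.239, limma adjusted p = 0.876). Pcdhb9 also had the highest SD over the 8 arrays of all members, 0.443. Its mean level over the 8 arrays, 6.95, was the lowest of all members. The median level was 8.01 for the members and 8.71 for all named rows. Pcdhb9 was among the members removed when the dimmest rows were left out, so its difference was not tested in that setting. Without control 2 the difference was -0.68 (limma adjusted p = 0.497), still not past the adjusted threshold.

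Pcdhb7 was at 7.99, 7.47, 8.01 and 8.31 in knockouts, against 8.05, 8.16, 8.37 and 8.22 in controls. Knockout 2 was far below the rest and knockout 4 was above 3 of the controls. The difference was -0.26 (SE 0.163, interval -0.63 to 0.11, limma adjusted p = 0.932).

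Pcdhb19 was at 8.57, 8.56, 8.65 and 8.85 in knockouts, against 8.79, 8.75, 8.96 and 8.69 in controls. Here 3 knockouts lay below every control, and knockout 4 lay above 3 of the 4 controls. The difference was -0.14 (SE 0.0907, limma adjusted p = 0.938).

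Pcdhb16 was at 8.32, 8.24, 8.59 and 8.75 in knockouts, against 8.63, 8.45, 8.78 and 8.79 in controls. Within the arrays numbered 1 to 4 both knockouts were below both controls, and within those numbered 5 to 8 they were as well. The difference was -0.19 (SE 0.130, limma adjusted p = 0.952).

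Pcdhb13 varied least over the 8 arrays, with an SD of 0.089. It was at 7.07, 7.22, 7.14 and 7.21 in knockouts, against 7.34, 7.21, 7.32 and 7.19 in controls, a difference of -0.11 (SE 0.0703, limma adjusted p = 0.948). The groups overlapped, since controls 2 and 4 fell among the knockouts.

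The 4 members with a higher mean in the knockout were Pcdhb2, Pcdhb3, Pcdhb5 and Pcdhb6, and none differed by more than 0.06. Pcdhb6 was at 8.91, 8.21, 8.73 and 8.91 in knockouts, against 8.64, 8.85, 8.61 and 8.62 in controls. Knockout 2 was the lowest of the 8 values and knockouts 1 and 4 were the highest, so the difference of 0.01 (SE 0.155, limma adjusted p = 1.0) averages values on both sides of the controls. Pcdhb3 was at 8.18, 7.57, 7.96 and 8.39 in knockouts, against 7.68, 7.90, 8.13 and 8.16 in controls, again with knockout 2 lowest. Pcdhb2 and Pcdhb5 differed by 0.06 and 0.04.

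Pcdhb1, the first gene of the cluster, was at 10.10, 9.58, 10.41 and 10.65 in knockouts, against 10.24, 10.04, 10.64 and 10.69 in controls. Its difference was -0.21 (SE 0.238, interval -0.75 to 0.32, limma adjusted p = 1.0). Pcdhb12 was at 6.88, 6.62, 7.09 and 7.26 in knockouts, against 7.0, 6.92, 7.12 and 6.97 in controls, a difference of -0.04 (SE 0.132). In both rows knockout 2 was the lowest array, and the controls lay inside the range of the knockouts in Pcdhb12 but not in Pcdhb1. The 11 members not described so far had differences between -0.17 (Pcdhb21) and -0.0048 (Pcdhb15).

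The row shared by the 14 alpha genes is no member, because its probes cannot be assigned to 1 gene. It was at 8.34, 8.0, 8.52 and 8.54 in knockouts, against 8.48, 8.50, 8.76 and 8.68 in controls, with knockouts 1 and 2 below every control and knockouts 3 and 4 among them. The means were 8.35 ± 0.25 in knockouts and 8.61 ± 0.14 in controls (SD, n = 4 each). The difference was -0.25 (SE 0.131, interval -0.55 to 0.04, limma adjusted p = 0.87), which was not past the threshold.

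Beta protocadherin rows varied more between arrays than the rest of the table. Their median SD over the 8 arrays was 0.209, against 0.155 for all named rows, and the median range was 0.614 against 0.46. Their median level was lower, 8.01 against 8.71, and rows of matched level were not compared. The arrays deviated together. Knockout 2 had the lowest of the 8 values in 16 of 22 rows, against 26.2% of all named rows, and the highest in 0, against 32.6%. Knockout 1 was lowest in 4 of the remaining rows, against 6.55%. The highest value was in knockout 4 in 9 rows, against 9.56%, and in control 3 in 8, against 7.45%.

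These arrays fall by the number that their titles carry. Arrays numbered 5 to 8, here called later, were knockouts 3 and 4 and controls 3 and 4. Arrays numbered 1 to 4, here called earlier, were knockouts 1 and 2 and controls 1 and 2. Both array sets hold 2 samples of each group and 1 control of each genotype. What the number stands for is not stated in the labels, and it need not be an order of processing.

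All 22 rows had a higher mean in the later arrays, against 44% of all named rows, and the median difference, later minus earlier, was 0.25 for the members and -0.03 for all named rows. In a limma fit with both group and array set, 13 of 22 were higher in the later arrays at an unadjusted p under 0.05 and 0 were lower. Among all named rows 30.4% passed that p, 15.5% higher and 14.9% lower. No row of the table passed an adjusted p of 0.05 (0% of named rows, lowest adjusted p 0.0821), so this pattern did not survive adjustment in that fit. With array weights 9 members and 3718 rows passed, and without control 1, 5 members and 2407 rows passed. Without knockout 2, 8 members were higher at the unadjusted p (12.7% of all named rows), and without both knockout 2 and control 2, 6 were (9.17% of all named rows). The count of members with a higher mean in the later arrays was 20 to 22 of 22 in every setting that kept all of them, quantile normalization and both ways of centring the arrays included. The comparison was chosen after the arrays' values had been seen.

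**Figure D2:**
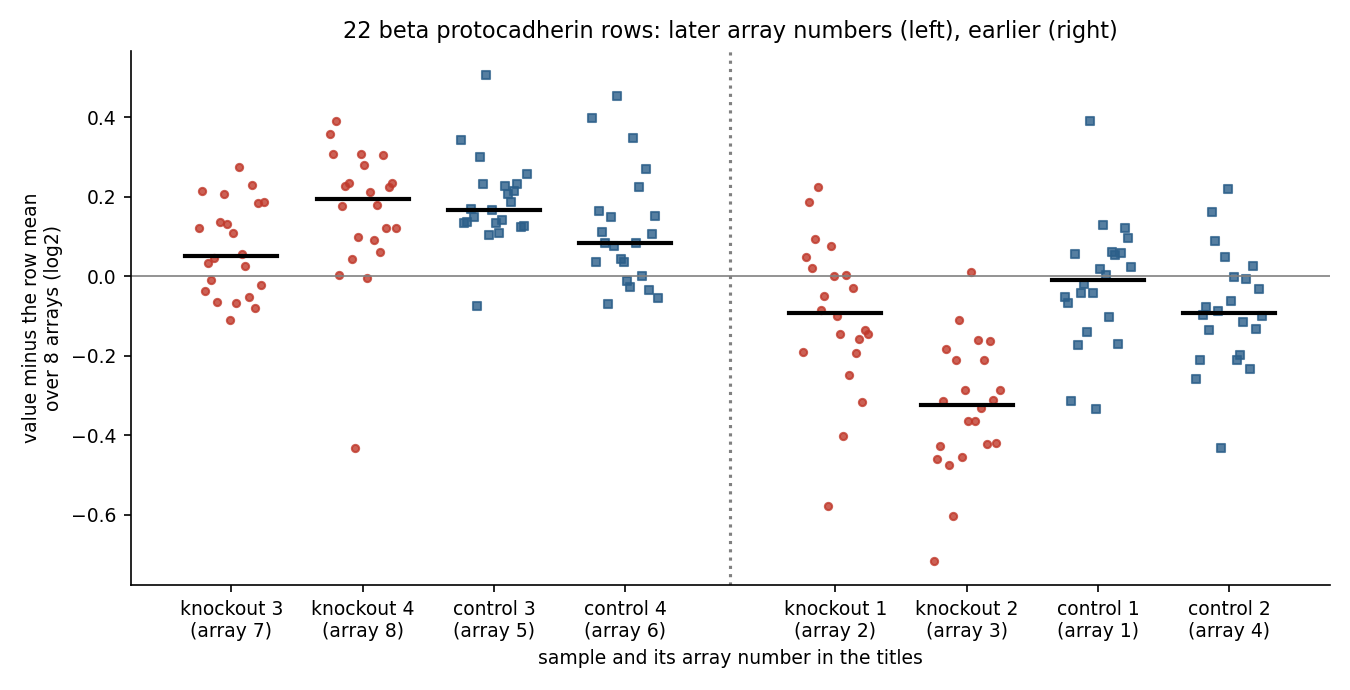
Value of each of the 22 beta protocadherin rows minus that row's mean over the 8 arrays (log2, vertical axis), for each sample with the array number of its title (horizontal axis), later numbers left of the dotted line and earlier ones right of it, circles for Emx2 knockouts and squares for controls. Black bars are medians over the rows, which were 0.05, 0.19, 0.17 and 0.08 in knockout 3, knockout 4, control 3 and control 4, and -0.09, -0.32, -0.01 and -0.09 in knockout 1, knockout 2, control 1 and control 2.

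In 5 rows, Pcdhb1, Pcdhb8, Pcdhb14, Pcdhb15 and Pcdhb18, all 4 later values lay above all 4 earlier values, against 9.6% of all named rows, and in none did all 4 lie below, against 9.45%. Pcdhb18 was at 8.80 and 8.88 in the later and 8.38 and 8.15 in the earlier knockouts, and at 8.78 and 8.84 in the later and 8.40 and 8.34 in the earlier controls. Its difference between array sets was 0.51 (SE 0.0754, limma adjusted p = 0.0821), while that between knockout and control was -0.04. Pcdhb14 was at 7.32 and 7.26 in the later and 6.64 and 6.68 in the earlier knockouts, and at 7.19 and 7.39 in the later and 7.05 and 6.84 in the earlier controls, a difference of 0.49 (SE 0.0906, adjusted p = 0.0821). Pcdhb1 differed by 0.61 (SE 0.122, adjusted p = 0.0821). In all 3 the gap was wider among the knockouts, where knockout 2 or knockout 1 was lowest. At the other end, Pcdhb13 and Pcdhb6 differed by 0.0042 and 0.07 between array sets.

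Within the array sets, with 2 knockouts against 2 controls in each, the average of the 22 rows was lower in knockouts by little in both. The difference was -0.037 among later arrays and -0.161 among earlier arrays, where knockout 2 lies. Both sets gave a lower mean for 12 of 22 rows, against 25.4% of all named rows, and both gave a higher mean for 1 row, against 27.3%. With the array set as a term in the limma fit, 1 of 22 rows passed an unadjusted p of 0.05, against 8.66% of all named rows, and it was lower in the knockout, against 4.52%. That row was Pcdhb16 (limma adjusted p = 0.535). In the same fit the alpha row, which is no member, was also lower in the knockout at an unadjusted p under 0.05 (limma adjusted p = 0.442), and its own values were higher in the later arrays by 0.30 (SE 0.0854, adjusted p = 0.0867).

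**Figure D3:**
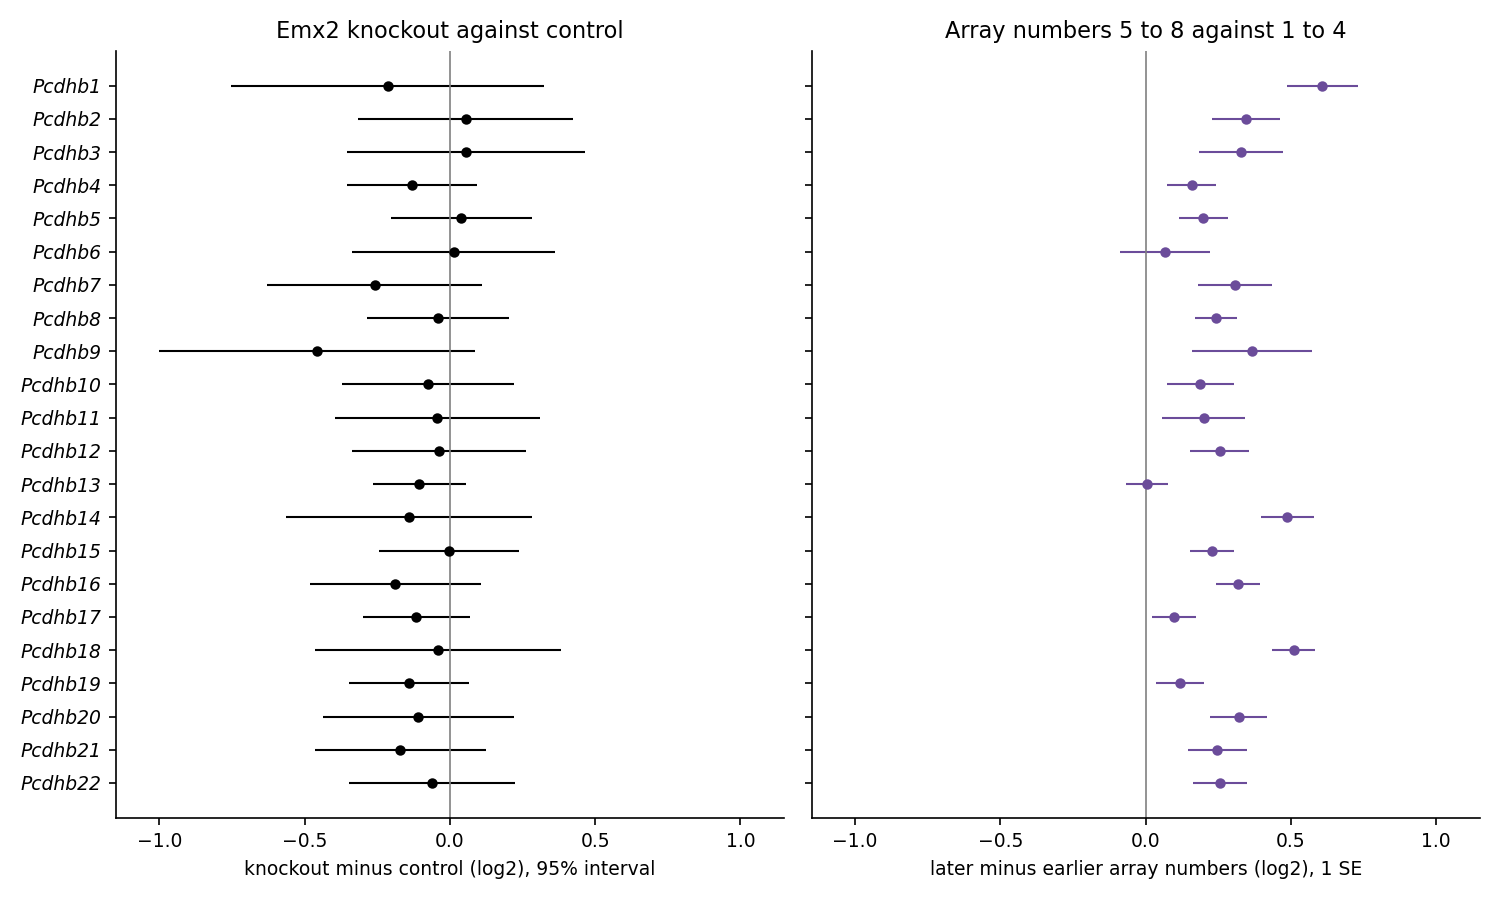
Left, difference between Emx2 knockout and control for each beta protocadherin row (log2, horizontal axis) with its 95% interval, rows in gene order down the page. Right, difference between later and earlier arrays on the same scale, with bars of 1 SE from the fit with both terms. All 22 intervals on the left include 0, and all 22 points on the right lie above 0, from 0.0042 (Pcdhb13) to 0.61 (Pcdhb1).

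Genes that act on the clusters were compared in the same way. Of the 19 regulators with a row of 1 symbol, 0 passed an adjusted or an unadjusted p of 0.05 between knockout and control in limma. Their differences ran from -0.14 to 0.06, with 12 lower, 7 higher and a median of -0.03. Ctcf was at 10.48, 10.13, 10.52 and 10.54 in knockouts, against 10.61, 10.45, 10.62 and 10.56 in controls, with knockout 2 lowest, a difference of -0.14 (SE 0.101, adjusted p = 0.964). Rad21, a cohesin subunit, differed by -0.10 and Smchd1 by -0.08. Dnmt3a, a DNA methyltransferase, differed by -0.12, and Setdb1, a histone H3 lysine methyltransferase, by -0.11.

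Between the array sets, many of these regulators differed in the same direction as the beta protocadherins, none past the adjusted threshold. Of the 19, 14 had a higher mean in the later arrays and 11 were higher at an unadjusted p under 0.05 (15.5% of all named rows), with a median of 0.38. The 11 were the cohesin subunits Smc1a, Smc3, Stag1 and Stag2, the cohesin loader Nipbl, the cohesin release and maintenance factors Wapl, Pds5a and Pds5b, the silencing proteins Smchd1 and Lrif1, and the nuclear RNA-binding protein Hnrnpu. Smchd1 was at 10.94 and 10.86 in the later and 10.44 and 9.95 in the earlier knockouts, and at 10.70 and 10.86 in the later and 10.64 and 10.30 in the earlier controls. It differed by 0.51 between array sets (SE 0.138, limma adjusted p = 0.0853). Stag2 differed by 0.85 (adjusted p = 0.0821). The maintenance DNA methyltransferase Dnmt1 and the corepressor Trim28 were lower in the later arrays, by -0.30 and -0.39 (adjusted p = 0.0821 and 0.0825). Ctcf and Rad21 differed by 0.14 and 0.11 (adjusted p = 0.31 and 0.434). As a list the regulators averaged 10.61 and 10.57 in later knockouts and 10.50 and 10.61 in later controls, and 10.41 and 10.05 in earlier knockouts and 10.43 and 10.27 in earlier controls. Knockout 2 was again the lowest of the 8. The part of one list in the level of the other was not tested.

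Other cadherin families were compared between the array sets as well. Among 21 protocadherins outside the clusters and related large cadherins, 8 had a higher mean in the later arrays (44% of all named rows), 5 of them at an unadjusted p under 0.05 (15.5%), and 4 were lower at that p (14.9%), with a median of -0.03. Whether this list differs from the beta protocadherins was not tested. Pcdh11x, Pcdh9, Pcdh7 and Pcdh17 were among the 5, with differences of 0.67, 0.46, 0.43 and 0.46. Pcdh8, Pcdh1, Fat2 and Dchs1 were lower, by -0.34, -0.25, -0.31 and -0.46. Among 12 classical cadherins and catenins, 6 were higher in the later arrays, 1 of them at that p, with 1 lower.

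The cell type markers gave no list with as large a difference between array sets in the same direction. The list mean, later minus earlier, was 0.27 for the beta protocadherins and 0.28 for the regulators, against 0.019 for mature OSN markers, -0.020 for immature OSN markers, 0.0026 for olfactory bulb and brain markers and 0.19 for sustentacular cell markers. Markers of basal cells and OSN progenitors ran the other way, at -0.23, as did those of vomeronasal neurons (-0.15) and of ensheathing and Schwann cells (-0.11). Muscle markers were at -0.068 and fibroblast and cartilage markers at -0.071. Sustentacular markers were at 12.73 and 12.82 in later knockouts and 12.70 and 12.76 in later controls, and at 12.64 and 12.501 in earlier knockouts and 12.63 and 12.48 in earlier controls, so no later array overlapped an earlier one. Of these 6 genes, 5 had a higher mean in the later arrays, with a median of 0.0841. In limma 1 was higher at an unadjusted p under 0.05 (15.5% of all named rows). Ermn had the widest range of the 6, 1.94, and weighs most in the list mean. It was at 11.28 and 11.47 in later knockouts and 11.095 and 11.28 in later controls. In the earlier arrays it was at 10.79 and 9.53 in knockouts and 10.86 and 10.14 in controls. The part of these cell types in the protocadherin values was not tested.

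**Figure D4:**
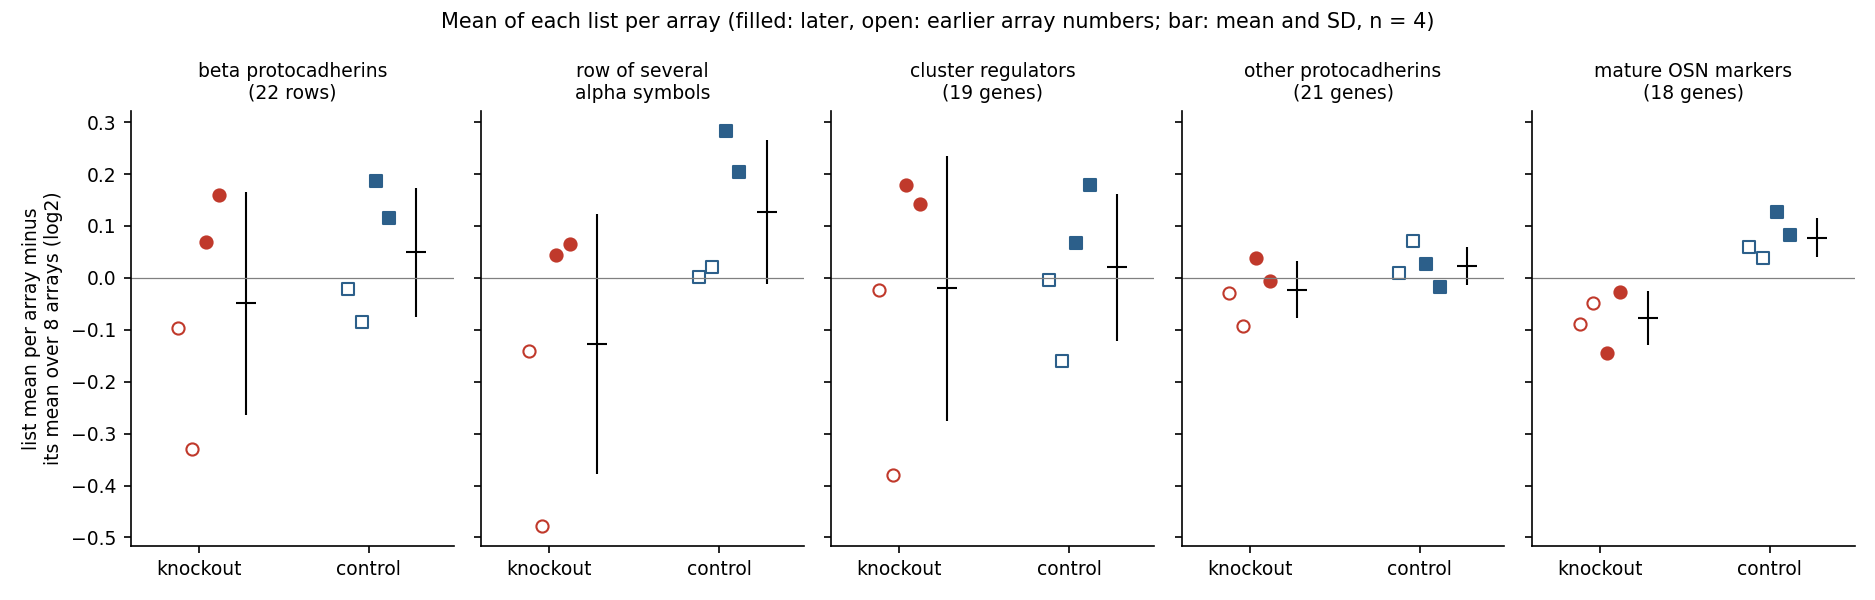
Mean of each list per array minus its mean over the 8 arrays (log2, vertical axis), in Emx2 knockouts (circles) and controls (squares), for the beta protocadherins, the row of alpha symbols, the cluster regulators, other protocadherins and mature OSN markers. Filled symbols are later and open symbols earlier array numbers, and black bars give the group mean and SD (n = 4 each). Knockout 2 is the lowest point in the first 4 panels, and mature OSN markers separate knockouts from controls without following the array number.

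Between knockout and control, the protocadherins outside the clusters had 1 row of 21 at an unadjusted p under 0.05, against 6.1% of all named rows. That row was Pcdh8, a delta-type protocadherin. It was at 8.35, 8.69, 7.84 and 8.24 in knockouts, against 8.75, 8.93, 8.67 and 8.61 in controls. All knockouts but knockout 2 lay below every control, and the difference was -0.46 (SE 0.165, limma adjusted p = 0.732). Pcdh11x and Pcdh9 differed by -0.42 and -0.29 and did not pass that p. Of the 21, 10 were lower and 11 higher, with a median of 0.0051.

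Of 22 listed signalling and cleavage partners of clustered protocadherins, 19 were measured, and limma passed 0 of them at an adjusted or an unadjusted p of 0.05. The mean was lower in the knockout for 16 and higher for 3, against 48.4% lower among all named rows, with a median of -0.07, and that balance was not tested. The largest difference was -0.19 for Fyn, a Src family kinase, then -0.17 for Marcks, a membrane-binding substrate of protein kinase C. Among classical cadherins and catenins 9 of 12 were lower, and again 0 passed either threshold. Cdh6, Cdh2 and Cdh4 differed by -0.27, -0.17 and -0.17.

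Markers of other cell types of the dissected tissue are given for comparison, and of these lists only that of vomeronasal neurons had a member past the adjusted threshold. Olfactory bulb and brain markers averaged 8.01 to 8.19 per knockout array and 8.04 to 8.55 per control array (9 of 12 lower in the knockout), and vomeronasal markers 9.87 to 10.27 and 10.26 to 10.50, with 1 of 6, the receptor Vmn2r1, past the adjusted threshold (-1.56, adjusted p = 0.0395). All 6 ensheathing and Schwann cell markers measured had a lower mean in knockouts and all 7 muscle markers a higher one, while 48.4% of all named rows were lower. The muscle list mean differed by 0.309 among later arrays and by -0.0087 among earlier arrays. Sustentacular, basal and fibroblast markers were split, with 3 of 6, 4 of 7 and 3 of 7 lower. Since the beta protocadherins had 0 rows past either threshold, these values are given beside them and their part was not tested.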

How the data were processed

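Per the labels and the study's methods, each of the 8 olfactory mucosae was measured on 1 GeneChip Mouse Gene ST array (Affymetrix). The authors deposited log2 values per transcript cluster. As a tool, the submitters' processing notes list Affymetrix Expression Console. Its version, the normalization and the genome build were not given in the sources used. Array medians were 8.0 to 8.13, and values ran from 2.78 to 14.8. The number of arrays limits the precision. Rows of similar protocadherin genes could share signal through cross-hybridisation, and no 2 member rows were identical.

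All 23410 named rows were tested with limma 3.58.1 (lmFit, eBayes, two-sided) in R 4.3.3, knockout against control with no covariate, with Benjamini-Hochberg adjustment over these rows and a threshold of 0.05. The labels name no cultures, litters or pools. The limma p-values set each difference only against the spread between these samples, with each row's spread moderated over all named rows. A second fit added the array set, numbers 5 to 8 against 1 to 4. All 22 members matched the reference by gene number and symbol. Lists use 1 row per gene. The procedure was tested on simulated data. The text names up to 3 beta rows with the highest and 2 with the lowest mean, up to 5 in each direction with the lowest p, those with the highest and lowest SD, up to 3 genes per list, and 6 fixed genes, and other genes were chosen after their values were seen. The members and lists were chosen with earlier results of these data known. Each result was recomputed with the methods' t-test, with quantile normalization, after centring on mature OSN markers or on array medians, without the dimmest 30% of rows, over all 35557 rows, with the alpha row added, with a variance trend, array weights, either control genotype alone, the array set as a term or either set alone, and each sample left out. No sequence is printed for these genes.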

Additional observations from a re-analysis of the deposited data

Results flagged for a closer look

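In each group of 4, a sample was singled out when its gap to the nearest other value, divided by the range of the group, passed Dixon's 95% critical value. Of 70 groups tested (the members, with some of the cluster regulators and other named genes), 7 were singled out. Chance alone singles out about 1 in 20 groups at this value. The other regulators were not screened in this way. Knockout 2 was the low sample in 4 of them. Pcdhb4 was 7.90 there, against 8.22 to 8.25 in the other knockouts. Pcdhb10 was 6.66 there, against 7.19 to 7.25. Ctcf was 10.1 there, with 10.5 the nearest value, and Dnmt3a was 10.5, with 10.9 the nearest and 11 the highest. Control 2 was singled out in the other 3. It was low for Pcdhb9, at 6.52 against 7.34 to 7.46 in the other controls, and for Pcdhb20, at 7.58 against 7.82 to 7.84. It was high for Pcdhb6, at 8.85 against 8.61 to 8.64. Both samples are earlier arrays, and knockout 2 is the array with the lowest weight.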

How the results depend on the processing

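No member passed the adjusted threshold in any of the 21 alternatives (lowest adjusted p 0.222, Pcdhb9 with array weights). Members lower at an unadjusted p under 0.05 numbered 0 as reported and 1 with array weights (Pcdhb9), with 123Cre:Emx2(fl/+) controls alone (Pcdhb9), with the array set as a term (Pcdhb16) and within the last 4 array numbers alone (Pcdhb9), where 14.7%, 3%, 8.66% and 7.84% of all named rows passed that p in either direction. They numbered 0 to 3 with each sample left out (3.48% to 9.99% of all named rows), 3 being Pcdhb7, Pcdhb19 and Pcdhb21 without knockout 4 (5.87%), and 1 being Pcdhb9 without knockout 3 or without control 2. Pcdhb1, Pcdhb7, Pcdhb9, Pcdhb16 and Pcdhb21 kept a lower mean in every alternative that tested them, though the difference shrank to -0.0113 at its smallest in Pcdhb1 and -0.0162 in Pcdhb21. The alternatives reuse the same 8 arrays, and the share of all named rows that kept their sign is not given. Over all named rows, 84 were called as reported, 28 by the methods' t-test, 27 without the dimmest 30% of rows, 224 with array weights, 32 and 25 with 123Cre:Emx2(fl/+) and Emx2(fl/fl) controls alone, 0 within the first 4 array numbers alone (limma, with 4.52% of rows at an unadjusted p under 0.05), and 46 to 132 with each sample left out, most without knockout 2. The mean difference over the 22 rows was -0.169 to -0.0051 with each sample left out, -0.0288 with array weights and 0.0558 after centring on mature OSN markers. Members higher in later arrays at an unadjusted p numbered 13 as reported (15.5% of all named rows), 8 under quantile normalization (14.5%), 7 with arrays centred on their medians (12.3%), 7 among knockouts alone (11.8%), 7 among controls alone (6.19%), 6 without knockout 2 and control 2 (9.17%), and 8 to 16 with each sample left out (10.8% to 18.2%). The causes were not tested. Leaving out the dimmest rows removed 6 of the 22 members. Adding the alpha row to the members left the counts between knockout and control at 0 in the fit without the array set. No mean over alpha or gamma rows could be computed, since no row has a single such symbol. Fits within an array set and the alternatives for the comparison of array sets were chosen after seeing the data. No paired analysis was possible because the replicate numbers only follow the order of the samples and the labels give no litter.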
